A study of Xenopus laevis with 9 samples.

Results

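The comparison was between the primary mouth and the tissue below it in Xenopus laevis (the African clawed frog) embryos at stage 26, a tailbud stage. It used 6 of the 9 arrays of the series, 3 of dissected primary mouth (numbered 1a, 2 and 3) and 3 of dissected ventral tissue with the cement gland (1, 2 and 3, called ventral here). The other 3 arrays held anterior dorsal tissue of the same stage, which entered the fit through the shared estimate of the spread and is otherwise given mainly for its levels. All 15491 probe sets that are not controls were described, and 10011 of them had enough signal to be tested. No genotype or treatment beyond the dissection is given, and every sample was a pool of 75 to 100 embryos. Whether the pools of 1 tissue stem from different clutches is not stated, and the p-values then cover only the spread among the arrays, which may be technical.

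The embryo's mouth first opens at the primary mouth, formed where ectoderm and foregut endoderm touch without mesoderm between them. It lies just below the forebrain and just above the cement gland, an organ of head ectoderm that secretes sticky mucus. Behind the cement gland lie the heart field, the early myeloid cells of the ventral mesoderm and the liver rudiment, and the ventral skin holds mucus-secreting, ciliated and ion-transporting cells. The hatching gland is a stripe of surface cells on the front and top of the head that releases proteases to dissolve the egg envelope.

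The labelled tissues were checked against the defining genes of the cement gland, ag1 and agr2, which encode secreted protein disulphide isomerase relatives. Summed over the 4 copies on the array, their signal was 16784 to 23175 units on the ventral arrays, 5180.3 to 8705 on the primary mouth arrays and 2865 to 3839 on the anterior dorsal arrays. All 4 copies were lower in primary mouth, as described below, yet none of them was near 0 there. The defining genes of the neural tube and eye, 9 copies on the array, summed to 1011 to 1074 units on the primary mouth arrays. Their sums were 373 to 613 on the ventral arrays and 2902 to 3068 on the anterior dorsal arrays. Of the 7 copies tested in the fit below, 4 were called higher in primary mouth and 0 lower. Of these sums six6.L alone made up 365, 396 and 406 units in primary mouth and 38.9, 25.6 and 9.196 in ventral tissue. The copies tubb2b.S (342, 259 and 292 against 416, 326 and 219 units), tubb3.L and elavl3.L were not called. The defining genes of the heart summed to 145 to 258 units in primary mouth, 772 to 1032 in ventral and 44.6 to 78.6 in anterior dorsal tissue. Among them nkx2-5.S alone made up 120.4, 126 and 223 units of the sums on the primary mouth arrays. The other heart copies read 0.597 to 22.02 units there. In dissected pieces, fewer cells of a type and less RNA per cell cannot be told apart, which applies to every result below.

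The arrays fell into sets of high and low 3' to 5' signal ratio of beta-actin, which is higher where the 5' parts of transcripts are under-represented. The ratio was 5.48 to 11.2 on primary mouth 1a and 2, ventral 1 and anterior dorsal 1, and 1.46 to 2.03 on the other 5. The same ratio of gapdh did not separate the sets. It was 13.17 to 23.9 in the high set, within that range on anterior dorsal 3 (13.7) and primary mouth 3 (14.02), and lower on the rest of the low set. A control probe set of the array, for the bacterial gene dap, did separate the sets. It read 2268 to 3008 units in the high set and 540 to 858 in the low set. High and low ratio below refer to beta-actin only, and what sets these arrays apart was not tested. In limma 2565 of 10011 probe sets differed between these sets with tissue in the model. Across probe sets, log2 signals correlated at 0.959 to 0.977 among the primary mouth arrays, 0.972 to 0.986 among the ventral arrays and 0.927 to 0.959 between both tissues. Many calls and counts are therefore also given with the array set as a term or within each set. The high set holds 2 primary mouth arrays and 1 ventral array, and the low set 1 primary mouth array and 2 ventral arrays. A call lost within a set thus need not mean that the difference is absent there.

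More probe sets were lower in primary mouth than higher. On the log2(signal + 16) scale, 442 of 10011 probe sets (4.42%) were higher and 1010 (10.1%) were lower at a limma adjusted p under 0.05, together 1452 (14.5%). Of the higher ones 157 differed by over 2-fold, 26 by over 4-fold and 8 by over 8-fold, and of the lower ones 481, 78 and 12. The median log2 fold change was 0.82 among the higher, -0.97 among the lower and 0.06 among all tested, with quartiles of -0.25 and 0.28. Signals of the 3 and 3 arrays did not overlap for 30.0% of all tested probe sets (14.1% higher and 15.8% lower), and for 438 of the 442 and 996 of the 1010 called. Counted by gene with 1 symbol, 269 of 5542 were higher (4.85%) and 545 lower (9.83%), and these shares are the background for the gene groups below. All gene lists were chosen with earlier results of these data known, so their counts are descriptions and no independent evidence. The annotation gives no symbol for 146 of the higher and 362 of the lower probe sets.

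The count of higher probe sets depended on single arrays. It was 292 without primary mouth 1a, 671 without primary mouth 3, 264 without ventral 2 and 237 without ventral 3, whereas leaving out any 1 of these 6 arrays left the lower count between 718 and 1056. With the array set as a term, 877 were higher and 1381 lower, and these held all 442 and all 1010. Within the arrays of high and of low ratio, all 442 and all 1010 kept the sign of their log2 fold change. These fits share their arrays with the main fit and hold 1 tissue by a single array.

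**Figure D1:**
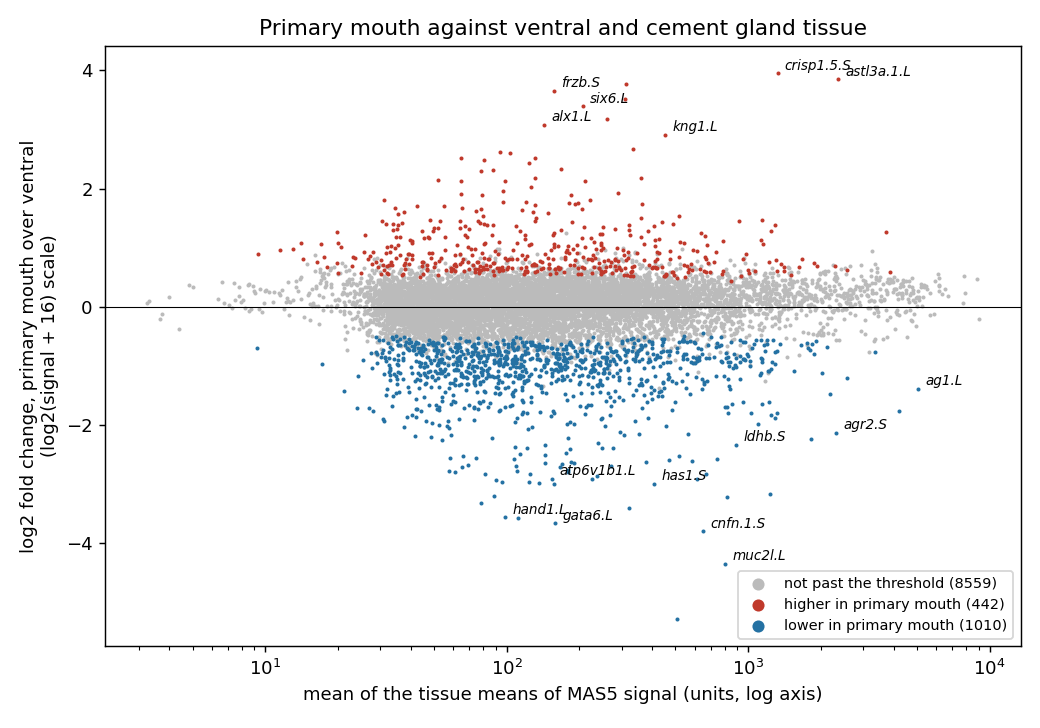
Log2 fold change of primary mouth over ventral tissue (vertical axis, log2(signal + 16) scale) against the mean of both tissues' mean signals (horizontal log axis, MAS5 units), 1 point for each of the 10011 probe sets tested. The 442 higher probe sets (red) reach 3.95 and the 1010 lower ones (blue) reach -5.28, and a few genes named in the text are labelled.

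The gene with the largest increase was crisp1.5.S, a member of the cysteine-rich secretory protein family. Its signals were 1977, 2190.3 and 3197 units on primary mouth 1a, 2 and 3 and 286, 263 and 29.3 on ventral 1, 2 and 3. The groups did not overlap, which the rule that names the genes of largest change required. Ventral 3 read far below the other ventral arrays (log2 fold change 3.95 ± 0.55, adjusted p = 0.000453, where ± is the standard error of the model). The anterior dorsal arrays read 4803, 5076 and 5217 units.

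Astacin-like metalloproteases, the family that includes hatching enzymes, followed the same pattern. The signals of astl3a.1.L were 3699, 4633 and 4593 units in primary mouth and 571, 583 and 59.2 in ventral tissue (log2 fold change 3.85 ± 0.59, adjusted p = 0.000977). Those of astl2e.2.L were 453, 465 and 826 against 54.8, 49.2 and 11.7 (log2 fold change 3.51 ± 0.33, adjusted p = 2.47e-05). Both were lowest on ventral 3, and both read higher still on the anterior dorsal arrays, with 6233, 5771 and 5810.1 units for astl3a.1.L and 1225, 1290.3 and 1534 for astl2e.2.L. The proton channel gene otop3.L had 95.0, 121 and 305 units in primary mouth, 25.1, 12.3 and 2.23 in ventral and 292, 430.4 and 521 in anterior dorsal tissue (log2 fold change 2.62 ± 0.39, adjusted p = 0.000737). For these 4 genes the highest and lowest ventral arrays differed by a larger ratio than the highest and lowest primary mouth arrays. The hatching gland list held 4 copies on the array, of which 3 were tested, 1 was higher (astl3a.1.L) and 2 were lower. Of the latter, klf17.L, which encodes a transcription factor of the hatching gland, read 47.5, 89.4 and 42.6 units in primary mouth against 190.5, 162 and 164 in ventral tissue (log2 fold change -1.36 ± 0.23, adjusted p = 0.0017), and the other was cat2.L (log2 fold change -0.81, adjusted p = 0.0105).

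Genes of the ventral forebrain and hypothalamus were higher in primary mouth. The homeobox gene six6.L, which acts in the eye and hypothalamus, read 365, 396 and 406 units on the primary mouth arrays and 38.9, 25.6 and 9.196 on the ventral arrays (log2 fold change 3.39 ± 0.25, adjusted p = 4e-06). Its relative six3.L read 142, 115 and 143 against 25.7, 24.3 and 22.5 (log2 fold change 1.89 ± 0.16, adjusted p = 1.27e-05). All 3 primary mouth arrays were several-fold above all ventral arrays for both genes. The anterior dorsal arrays, at 579, 482 and 427 and 168, 186 and 144 units, were close to primary mouth, and the differences between these tissues did not pass (adjusted p = 0.474 and 0.33).

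The transcription factor genes nkx2-1.L, of the ventral forebrain and thyroid, and fezf2.L, of the forebrain, were also higher. Signals of nkx2-1.L were 99.2, 100.3 and 85.0 units against 9.71, 8.57 and 8.90 (log2 fold change 2.14 ± 0.19, adjusted p = 1.66e-05). Those of fezf2.L were 91.6, 65.1 and 64.6 against 14.5, 13.2 and 6.73 (log2 fold change 1.71 ± 0.20, adjusted p = 0.000159). Unlike six6.L and six3.L, both read lower in primary mouth than on the anterior dorsal arrays, nkx2-1.L with log2 fold change -0.97, adjusted p = 0.00556 and fezf2.L with log2 fold change -2.16, adjusted p = 3.67e-05. That contrast, which shares the primary mouth arrays with the present one, called 4.68% of all tested probe sets higher and 4.87% lower.

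Of 18 hypothalamus and pituitary copies on the array 9 were tested, of which 6 were higher, 1 lower and 2 not past the threshold. Their median log2 fold change was 1.68 (1.08 within the arrays of high ratio). However, 5 of the 9 lay above the filter on all 3 primary mouth arrays and on no ventral array. Such copies, counted below without regard to the anterior dorsal arrays, may favour the tissue in which they are high. The filter itself counted the anterior dorsal arrays too. Without the filter, 7 of all 18 were higher and 1 lower, with a median of 0.48. The background of that fit, over 7531 genes, was 3.24% higher and 7.34% lower. The lower gene was chga.L, which encodes the secretory granule protein chromogranin A, at 21.9, 23.4 and 20.2 units in primary mouth and 92.2, 87.5 and 120.2 in ventral tissue (log2 fold change -1.605 ± 0.16, adjusted p = 4.56e-05).

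The forebrain and neural tube list was higher in part, and several of its members were higher still in anterior dorsal tissue. Of 57 copies 43 were tested, with 20 higher, 2 lower and 21 not past the threshold. Their median was 0.46 (0.27 to 0.76 over the alternatives). Of the 43, 7 lay above the filter in primary mouth but not in ventral tissue, and 1 the other way round. In the fit without the filter, 18 of all 57 were higher and 1 lower, with a median of 0.32. The shares among all genes in that fit were 3.24% higher and 7.34% lower. The zinc finger gene zic2.S read 112, 98.1 and 69.0 units in primary mouth, 17.0, 24.6 and 10.4 in ventral and 498, 445 and 345 in anterior dorsal tissue (log2 fold change 1.71 ± 0.22, adjusted p = 0.000263). The eye and brain regulator pax6.L read 90.6, 104 and 57.8, 30.9, 27.5 and 6.51 and 503, 509 and 539.9 units (log2 fold change 1.45 ± 0.27, adjusted p = 0.00321). Both thus lay between the other tissues, nearer to ventral. The ventral neural tube gene nkx2-2.S (log2 fold change 1.26, adjusted p = 0.000202) and the neural adhesion gene ncam1.S (log2 fold change 1.601, adjusted p = 0.00842) were higher as well. The Iroquois homeobox genes irx2.L (log2 fold change -1.01, adjusted p = 0.000634) and irx3.L (log2 fold change -0.71, adjusted p = 0.0396) were lower. Without ventral 3 the count of higher members among those tested was 13, and within the arrays of high and low ratio it was 11 and 12. The calls of pax6.L (adjusted p = 0.0553) and ncam1.S (adjusted p = 0.0785) were lost within the low and the high set respectively, and that of irx2.L within the high set (adjusted p = 0.0658). That of irx3.L was lost without primary mouth 1a or 2, ventral 1, 2 or 3, or anterior dorsal 2 (adjusted p = 0.136, 0.0679, 0.0501, 0.148, 0.0965 and 0.0603) and within each array set (adjusted p = 0.354 and 0.118).

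The neuronal markers tubb3.L and elavl3.L were not called, unlike the neural adhesion gene ncam1.S given above. Both markers read below the 40th percentile of every primary mouth array (30.9 to 33.6 units), where low signals limit the changes that can be measured. The neuronal tubulin gene tubb3.L read 29.6, 23.99 and 27.1 units in primary mouth, 37.3, 34.5 and 64.9 in ventral and 165, 219.6 and 243 in anterior dorsal tissue, and its difference between primary mouth and ventral tissue did not pass (log2 fold change -0.49 ± 0.21, adjusted p = 0.154). The RNA-binding protein gene elavl3.L, expressed in differentiating neurons, read 4.80, 6.50 and 16.3, 3.07, 9.74 and 8.02 and 39.3, 89.99 and 132 units. On these arrays both were highest in anterior dorsal tissue. Among axon guidance and Eph genes, 6 of 23 tested were higher and 1 lower, out of 35 copies. Of the 23, 3 lay above the filter in primary mouth but not in ventral tissue. Fitted without the filter, 6 of all 35 were higher and 1 lower against 3.24% and 7.34% of all genes, with a median of -0.05. The repulsive guidance molecule gene rgma.L read 206, 227 and 237 against 88.3, 81.0 and 90.5 units (log2 fold change 1.22 ± 0.14, adjusted p = 0.000148). The growth cone protein gene dpysl3.L read 172, 208 and 167 against 61.8, 56.7 and 28.7 (log2 fold change 1.64 ± 0.21, adjusted p = 0.000256). The count of 6 was 3 without primary mouth 2 or without ventral 3, where the call of the semaphorin gene sema3a.L (log2 fold change 0.81, adjusted p = 0.024) was lost (adjusted p = 0.0625 and 0.0984), as it was without primary mouth 3 or ventral 2 (adjusted p = 0.058 and 0.105) and within the arrays of high ratio (adjusted p = 0.695). Within either array set the count was 3. The lower gene, the Eph receptor gene epha2.L (log2 fold change -0.86, adjusted p = 0.0236), lost its call without primary mouth 1a or 2 or ventral 2 or 3 (adjusted p = 0.0667, 0.091, 0.109 and 0.0831) and within the arrays of high ratio (adjusted p = 0.357), and 2 genes were lower without ventral 1.

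**Figure D2:**
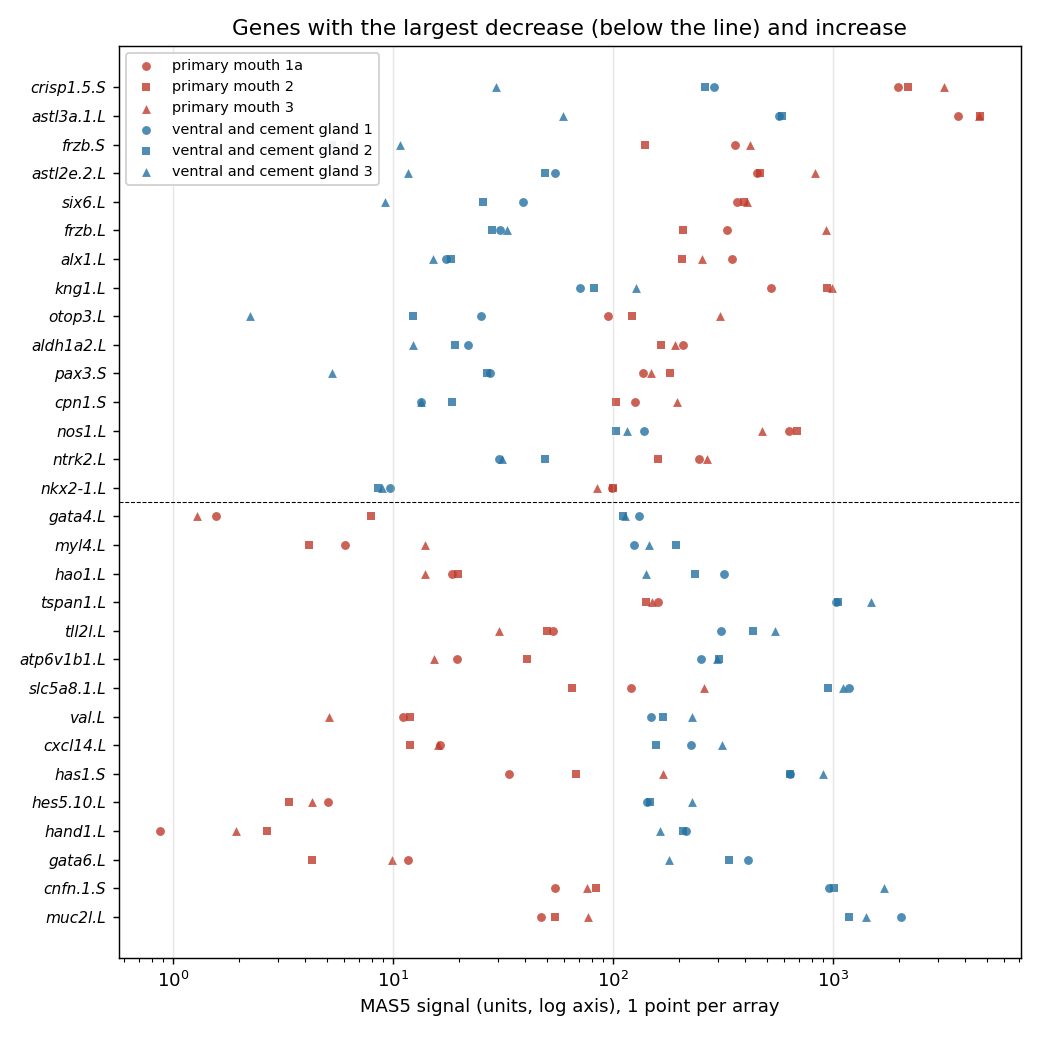
MAS5 signal (log axis, units) on each of the 6 arrays for the 15 named genes with the largest increase (above the dashed line) and the 15 with the largest decrease (below it) in primary mouth. Red symbols are primary mouth arrays and blue symbols ventral arrays, which do not overlap for any of these genes by the rule that chose them. Ventral 3 (blue triangles) reads 29.3 units for crisp1.5.S and 59.2 for astl3a.1.L, below ventral 1 and 2.

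Several head mesenchyme genes were higher in primary mouth, whereas several neural crest markers had low signal in both tissues. The homeobox gene alx1.L, known from the mesenchyme of the face, read 348, 205 and 253 units in primary mouth and 17.4, 18.4 and 15.23 in ventral tissue (log2 fold change 3.08 ± 0.19, adjusted p = 1.62e-06). The cartilage and crest regulator sox9.S read 769.9, 498 and 441 against 176, 198 and 104 (log2 fold change 1.74 ± 0.25, adjusted p = 0.00064). The paired box gene pax3.S, active in dorsal neural tube and crest, read 137, 181 and 149 against 27.7, 26.6 and 5.304 (log2 fold change 2.32 ± 0.25, adjusted p = 8.32e-05), with 799, 876 and 706 in anterior dorsal tissue. Every primary mouth array was above every ventral array for all 3 genes. The cadherin gene cdh11.S of migrating crest (log2 fold change 1.13, adjusted p = 0.00019) and the ETS factor gene fli1.S (log2 fold change 0.99, adjusted p = 0.00283) were also higher.

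In all, 13 of 30 tested crest and head mesenchyme genes were higher, 4 lower and 13 not past, of 40 copies on the array. Among the 30, 3 lay above the filter in primary mouth but not in ventral tissue, and 2 the other way round. Fitted without the filter, 13 of all 40 were higher and 4 lower against 3.24% and 7.34% of all genes. The lower genes were hand2.S (log2 fold change -2.57, adjusted p = 0.00038), msx2.L (log2 fold change -1.37, adjusted p = 0.00019), msx1.L (log2 fold change -1.16, adjusted p = 0.0218) and dlx3.L (log2 fold change -0.75, adjusted p = 0.0139), which encode transcription factors of ventral or BMP-responsive cells. The lower count was 2 without ventral 2 or ventral 3, since the calls of msx1.L (adjusted p = 0.0926 and 0.0995) and dlx3.L (adjusted p = 0.0585 and 0.0591) then no longer passed. The call of msx1.L was also lost without primary mouth 1a or 2 and within the arrays of high ratio (adjusted p = 0.0958, 0.0692 and 0.0955). The crest markers sox10.L, foxd3.L, foxd3.S, snai2.L and snai2.S did not pass the filter on low signals, with 8.38, 12.36 and 15.17 units of sox10.L in primary mouth and 14.2, 12.6 and 15.6 in ventral tissue. Both dlx2 copies were tested and did not pass.

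Some genes of Hedgehog, retinoic acid and BMP signalling had higher signal in primary mouth. The Hedgehog ligand gene shh.L read 322, 209 and 109.7 units against 53.4, 58.2 and 35.9 (log2 fold change 1.72 ± 0.30, adjusted p = 0.00198), with 1a highest among the primary mouth arrays and no overlap. Of 9 tested genes of the Hedgehog list 4 were higher and 0 lower, of 17 copies. Among the 9, 1 lay above the filter in primary mouth but not in ventral tissue. All 9 had a positive log2 fold change, against 56.2% of all genes tested. Without the filter 5 of all 17 were higher and 0 lower against 3.24% and 7.34% of all genes, with a median of 0.24. Among the 9 tested Hedgehog genes the higher count was 3 within either array set. The retinaldehyde dehydrogenase gene aldh1a2.L, whose product makes retinoic acid, read 208, 166 and 192 against 21.8, 19.2 and 12.3 units (log2 fold change 2.60 ± 0.20, adjusted p = 5.25e-06). The gene of a retinoic acid degrading enzyme, cyp26c1.S, read 1025, 1007 and 752 against 335, 395 and 446 (log2 fold change 1.21 ± 0.22, adjusted p = 0.00265), so genes of synthesis and of breakdown were both higher. The BMP antagonist gene nog.L read 171, 94.3 and 137 units against 51.7, 56.1 and 49.1 (log2 fold change 1.105 ± 0.20, adjusted p = 0.00262). Within the arrays of low ratio the call of cyp26c1.S was lost (adjusted p = 0.116). Of 16 tested retinoic acid genes 3 were higher and 0 lower, of 28 copies. Among the 16, 1 lay above the filter in primary mouth but not in ventral tissue. In the fit without the filter, 3 of all 28 were higher and 1 lower against 3.24% and 7.34% of all genes. The median of all 28 was 0.10. Among the tested genes the higher count was 5 without primary mouth 3 and as low as 2 without some other array. The median of the tested genes was 0.29, with a range of 0.03 to 0.38 over the alternatives. The remaining higher gene, rdh10.L, lost its call without primary mouth 1a or 2, ventral 2 or 3, or anterior dorsal 2 or 3 (adjusted p = 0.152, 0.0899, 0.107, 0.164, 0.0579 and 0.051).

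Wnt and Notch genes were mixed. Of 33 tested Wnt genes 5 were higher and 2 lower, of 59 copies. Among the 33, 2 lay above the filter in primary mouth but not in ventral tissue. Without the filter 4 of all 59 were higher and 3 lower, against 3.24% and 7.34% of all genes. Both copies of frzb, a secreted Wnt antagonist, led, frzb.L at 331, 209 and 932 units against 30.7, 28.0 and 32.9 and frzb.S at 359.6, 139 and 418 against 6.45, 5.29 and 10.8 (log2 fold change 3.17 ± 0.41, adjusted p = 0.000256, and log2 fold change 3.65 ± 0.33, adjusted p = 2.06e-05 respectively). Primary mouth 2 read lowest of its group for both copies. Another secreted Wnt-binding protein gene, sfrp2.S, went the other way, with 460.3, 387 and 297 units in primary mouth against 1038, 886 and 785 (log2 fold change -1.22 ± 0.20, adjusted p = 0.00168). The count of higher Wnt genes was 3 without primary mouth 1a, ventral 1 or ventral 3, and 8 with the array set as a term. That of lower ones was 1 without primary mouth 1a or 3, ventral 2 or 3, or anterior dorsal 3. Of 19 tested Notch genes 5 were higher, among them rbpj.S, the DNA-binding factor of the pathway (log2 fold change 1.34, adjusted p = 0.00332), and 2 lower, of 25 copies. Among the 19, 2 lay above the filter in primary mouth but not in ventral tissue, and 1 the other way round. Without the filter 5 of all 25 Notch copies were higher and 3 lower, against 3.24% and 7.34% of all genes. The hes genes moved in both directions, with hes5.1.L (log2 fold change 1.34, adjusted p = 0.018) and hes5.2.S (log2 fold change 1.18, adjusted p = 0.00974) higher and hes5.10.L much lower, at 5.04, 3.36 and 4.26 units against 143, 146 and 228 (log2 fold change -3.19 ± 0.18, adjusted p = 1.35e-06). The higher Notch count was 3 without primary mouth 1a or ventral 3 and 2 without ventral 2, where the call of hes5.1.L was lost (adjusted p = 0.0706), and the lower count was 1 without any 1 of primary mouth 1a, 2 or 3, ventral 2 or 3, or anterior dorsal 2 or 3. The gene then lost was hey1.S (log2 fold change -0.74, adjusted p = 0.0366; adjusted p = 0.0502 to 0.159 in these fits). Within the arrays of high ratio the calls of hes5.2.S and hey1.S were lost (adjusted p = 0.332 and 0.799), and the higher count was 2.

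The list of primary mouth and anterior ectoderm genes was drawn up in part from work on these samples, so its direction is no independent evidence. Of 25 copies 17 were tested, and 13 of these were higher, 1 lower and 3 not past the threshold. Among the 17, 7 lay above the filter in primary mouth but not in ventral tissue. The anterior homeobox gene otx2.L read 199, 167 and 207 against 80.4, 88.6 and 120.2 units (log2 fold change 0.89 ± 0.17, adjusted p = 0.00382), whereas otx2.S read 22.8, 13.9 and 54.0 against 15.997, 16.3 and 14.1 and did not pass (adjusted p = 0.311). The head ectoderm gene pitx1.L read 209, 239.8 and 191 against 168, 164 and 98.4 units and did not pass either (log2 fold change 0.55 ± 0.20, adjusted p = 0.0924). It was low on the anterior dorsal arrays (31.0, 29.5 and 25.04 units). The lower gene, tbx2.L, lay at the threshold (log2 fold change -0.59 ± 0.18, adjusted p = 0.0498) and was lost without any 1 of primary mouth 1a or 2, ventral 2 or 3, or anterior dorsal 2 (adjusted p = 0.145, 0.125, 0.177, 0.132 and 0.0739), within each array set (adjusted p = 0.484 and 0.207) and without the filter (adjusted p = 0.0718).

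A few matrix genes passed the threshold, in both directions. The metalloprotease gene mmp28.L read 400.3, 374 and 283 units in primary mouth against 98.1, 82.5 and 86.4 (log2 fold change 1.80 ± 0.20, adjusted p = 7.98e-05), and the protease inhibitor gene serpine2.S was also higher (log2 fold change 1.04, adjusted p = 0.00198). The proteases mmp1.S (log2 fold change -1.94, adjusted p = 6.07e-06) and mmp3.L (log2 fold change -1.32, adjusted p = 0.00917) were lower. The hyaluronan synthase gene has1.S, which makes a large matrix sugar, read 33.6, 68.2 and 168 units in primary mouth against 634, 639 and 903 (log2 fold change -2.997 ± 0.37, adjusted p = 0.000202), so primary mouth 3 was highest of its group but still below every ventral array. Both copies of the hyaluronan link protein gene hapln3 were lower too (log2 fold change -1.44, adjusted p = 6.85e-05 for hapln3.L and log2 fold change -0.87, adjusted p = 0.00321 for hapln3.S), as was the hyaluronan receptor gene cd44.L (log2 fold change -0.89, adjusted p = 0.00914). Higher matrix genes included the collagen gene col9a1.L (log2 fold change 0.93, adjusted p = 0.00279) and the calcium-binding matrix protein gene sparc.L (log2 fold change 0.96, adjusted p = 0.0048). Of 26 tested matrix genes 4 were higher and 4 lower, of 45 copies, with 7 and 6 when the array set was a term. Without the filter 3 of all 45 were higher (6.67%) and 4 lower (8.89%), against 3.24% and 7.34% of all genes. Of 14 tested matrix proteases and inhibitors 2 were higher and 2 lower, of 28 copies. In the fit without the filter, 2 of all 28 were higher (7.14%) and 3 lower (10.7%). Within the arrays of high ratio the calls of hapln3.S, cd44.L, col9a1.L and sparc.L were lost (adjusted p = 0.195, 0.121, 0.0792 and 0.3), and within those of low ratio that of cd44.L (adjusted p = 0.097).

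Most cell cycle genes had small positive differences, and few passed the threshold. Of 107 tested genes (of 121 copies) 103 had a positive log2 fold change, 15 were higher and 0 lower, against 56.2% positive among all genes tested. Their median was 0.36, with a range of 0.28 to 0.43 over the alternatives, and this is against 0.06 for all genes. The cyclin gene ccnd1.S read 582, 648 and 456 units against 245, 295 and 334 (log2 fold change 0.91 ± 0.18, adjusted p = 0.00396), and its homeolog ccnd1.L read 1220.0, 1421 and 1009 against 671, 618 and 767 (log2 fold change 0.81 ± 0.18, adjusted p = 0.0102). The count of 15 was 7 without ventral 2, 8 without ventral 3, 2 within the arrays of high ratio and 43 with the array set as a term. The call of ccnd1.L was lost without ventral 2 (adjusted p = 0.0506) and those of both copies within the low set (adjusted p = 0.0886 for ccnd1.S and 0.0998 for ccnd1.L). All 69 tested cytosolic ribosomal protein genes had a positive log2 fold change, with a median of 0.37 (0.20 without primary mouth 2, 0.53 without primary mouth 3 and 0.19 within the arrays of low ratio), yet 0 passed in limma (9 were higher and 0 lower at an unadjusted p under 0.05). Without primary mouth 3, 14 of them were higher, and leaving out any other array gave 0 or 1.

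**Figure D3:**
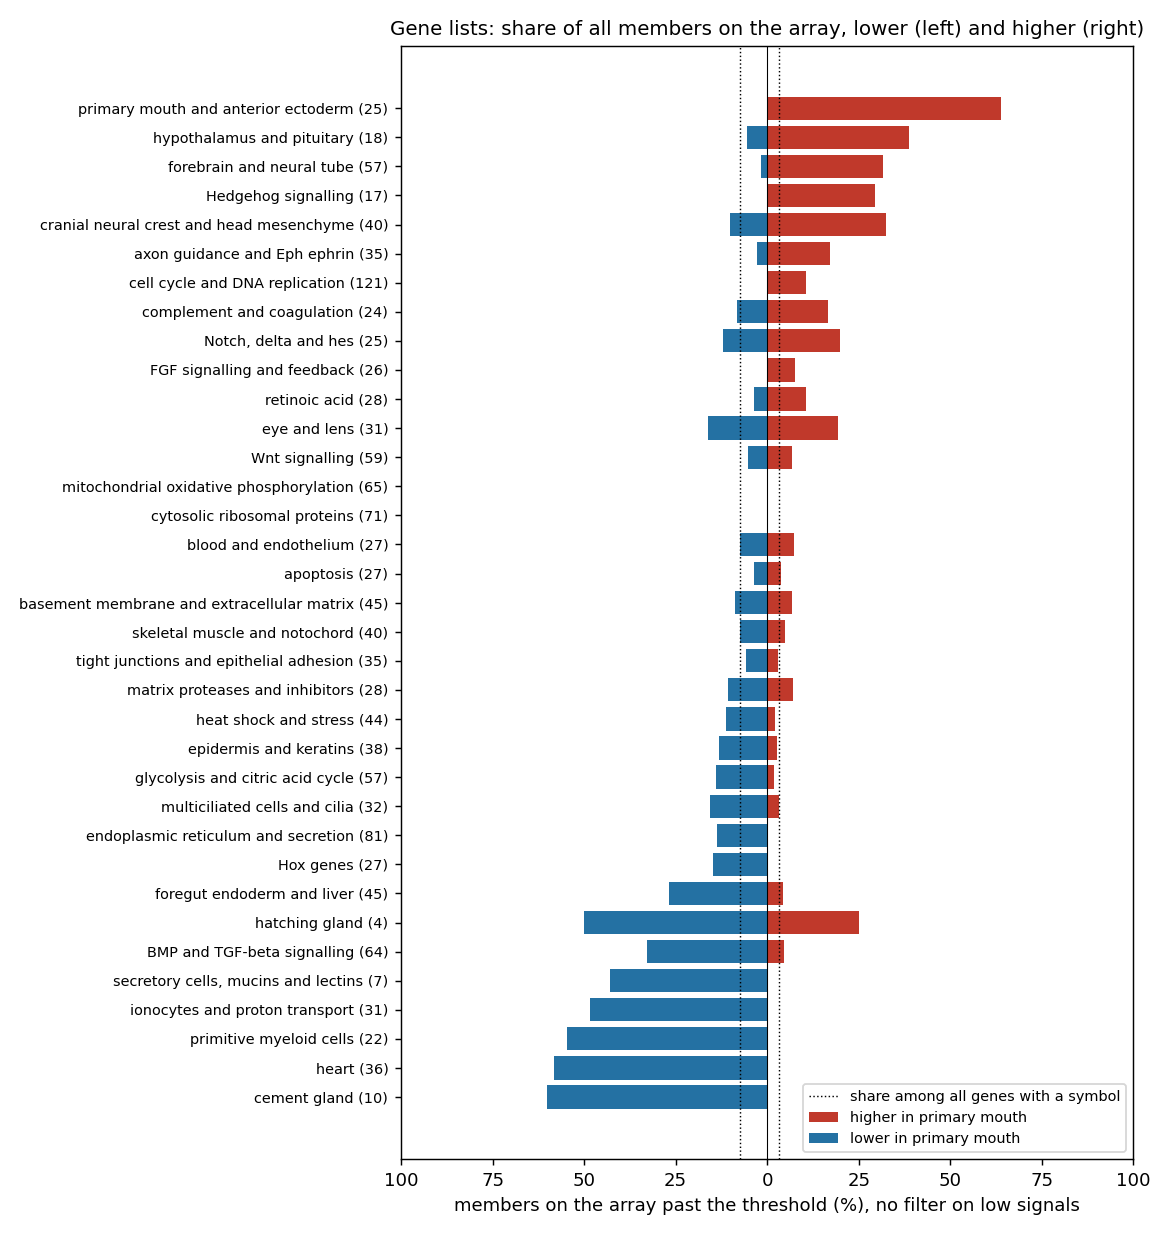
Share of all members on the array of each of 35 gene lists that were higher (red, to the right) or lower (blue, to the left) in primary mouth in the fit without the filter, in percent, with the number of members in brackets and dotted lines at the shares among all 7531 genes in that fit (3.24% and 7.34%). The cement gland list, with 6 of 10 lower, and the heart list, with 21 of 36 lower, have the longest blue bars, and the primary mouth and anterior ectoderm list, drawn up in part from work on these samples, has the longest red bar with 16 of 25 higher.

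Cement gland genes were lower in primary mouth but had high signal there. The signals of ag1.S were 1688, 1343 and 2845 units in primary mouth and 7181, 4989.7 and 7202 in ventral tissue (log2 fold change -1.77 ± 0.26, adjusted p = 0.000685). Those of ag1.L were 2377, 2362 and 3640.0 against 9019.9, 5626 and 7305 (log2 fold change -1.39 ± 0.21, adjusted p = 0.000942). Primary mouth 3 was highest of its group for both and below every ventral array. The copies of agr2 read 975, 560.1 and 1068 against 3734, 3189.8 and 4334 for agr2.S (log2 fold change -2.13 ± 0.38, adjusted p = 0.00249) and 1429, 915 and 1152 against 3240.4, 2978 and 3394 for agr2.L (log2 fold change -1.47 ± 0.27, adjusted p = 0.00274). Of the regulators, crx.S, an otx-related homeobox gene, read 13.7, 16.02 and 17.4 units against 59.7, 111 and 96.4 (log2 fold change -1.69 ± 0.21, adjusted p = 0.000203), while crx.L did not pass (23.4, 5.90 and 32.3 against 22.5, 36.4 and 38.9 units, adjusted p = 0.297). All 10 copies on the array were tested, with 6 lower and 0 higher, and the count was 5 without ventral 2 or ventral 3, each time because the call of dlx3.L was lost. Within the low set neither agr2 copy passed (adjusted p = 0.0854 for agr2.S and 0.0535 for agr2.L).

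Several mucus and secretion genes, and other genes named for the size of their change, were lower as well. The named gene with the largest decrease was the mucin-like muc2l.L, at 46.9, 54.7 and 77.0 units in primary mouth against 2046, 1182 and 1408 in ventral tissue (log2 fold change -4.35 ± 0.30, adjusted p = 3.14e-06). A tetraspanin gene, tspan1.L, read 161, 142 and 150.4 against 1031, 1054 and 1489 (log2 fold change -2.84 ± 0.19, adjusted p = 2.45e-06), and a sodium-coupled monocarboxylate transporter gene, slc5a8.1.L, read 121, 65.2 and 259.7 against 1186, 946 and 1109.8 (log2 fold change -2.91 ± 0.34, adjusted p = 0.000132). All 3 differed without overlap, which the rule that names the genes of largest change required. In contrast, the lectin gene itln1.L, abundant in skin secretory cells, read 6994, 10826 and 5971 units against 10295, 5452 and 7131 and overlapped between the tissues (adjusted p = 0.906). Of 76 tested genes of the endoplasmic reticulum and secretion (of 81 copies) 15 were lower and 0 higher, against 9.83% and 4.85% of all genes tested. The median of the 76 was -0.44, and 7 of the 76 had a positive log2 fold change. The retrieval receptor gene kdelr2.L read 1482, 1454 and 1694 against 3875, 2881 and 4043 units (log2 fold change -1.201 ± 0.17, adjusted p = 0.000565), and the vesicle tether gene uso1.L was lower too (log2 fold change -0.96, adjusted p = 0.00525). Single arrays moved that count: it was 5 without primary mouth 1a, 7 without primary mouth 2, 25 without primary mouth 3, 8 without ventral 2 and 3 without ventral 3. It was 10 without anterior dorsal 3, 4 within the arrays of high ratio, 6 when only the 6 arrays were fitted and 28 with the array set as a term.

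Genes of ionocytes, the acid- and ion-transporting cells of the skin, formed another lower group. The proton pump subunit gene atp6v1b1.L read 19.5, 40.4 and 15.4 units in primary mouth and 251, 302 and 298 in ventral tissue (log2 fold change -2.91 ± 0.21, adjusted p = 4e-06). Carbonic anhydrase, ca2.S, read 37.7, 37.1 and 25.8 against 313, 367 and 300.3 (log2 fold change -2.79 ± 0.18, adjusted p = 2.24e-06). The master regulator of ionocytes, foxi1.L, read 5.52, 4.64 and 1.38 against 66.2, 50.2 and 56.6 (log2 fold change -1.89 ± 0.16, adjusted p = 1.08e-05). For all 3 genes the anterior dorsal arrays were near primary mouth, at 15.02, 16.7 and 18.6, 42.2, 52.5 and 32.9 and 12.1, 7.45 and 6.61 units. The pump subunit genes atp6v0d2.L (log2 fold change -2.48, adjusted p = 2.1e-06) and atp6v0a4.L (log2 fold change -2.04, adjusted p = 2.47e-05) changed alike. Subunits that pumps of all cells share differed less, with a log2 fold change of -0.69 for atp6v0d1.L (adjusted p = 0.011) and of -0.34 for atp6v1a.L, which did not pass (adjusted p = 0.352). Of 25 tested copies (of 31) 17 were lower and 0 higher, with a median of -0.87. Among the 25, 3 lay above the filter in ventral tissue but not in primary mouth. In the fit without the filter, 15 of all 31 were lower and 0 higher against 7.34% and 3.24% of all genes. The median of all 31 was -0.69. The count among tested copies was 10 without primary mouth 2 or ventral 2, 9 without ventral 3 and 10 within the arrays of high ratio.

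A few skin and cilia genes were lower, while most of those tested did not pass. The cornified envelope gene cnfn.1.S read 54.2, 83.3 and 76.2 units in primary mouth against 960.2, 1007 and 1710.4 (log2 fold change -3.80 ± 0.25, adjusted p = 2.45e-06). The plakin genes evpl.L (log2 fold change -1.25, adjusted p = 0.00244) and ppl.L (log2 fold change -0.92, adjusted p = 0.00169), whose products link keratin filaments to cell junctions, and the epithelial splicing factor gene esrp1.L (log2 fold change -0.87, adjusted p = 0.00241) were lower. Of 31 tested epidermis and keratin genes 5 were lower and 1 higher, of 38 copies, against a background of 9.83% lower, and 8 were lower without primary mouth 3 or with the array set as a term. The higher one was tfap2a.L (log2 fold change 0.67, adjusted p = 0.026), whose call was lost without primary mouth 2, ventral 2 or ventral 3 (adjusted p = 0.0962, 0.0558 and 0.117) and within each array set (adjusted p = 0.331 and 0.0868). Of 26 tested cilia genes 6 were lower and 1 higher, of 32 copies. Above the filter in ventral tissue but not in primary mouth were 2 of them, and 1 was the other way round. Among the 26, 23 had a negative log2 fold change, with a median of -0.37 against 0.06 for all genes. In the fit without the filter, 5 of all 32 were lower and 1 higher against 7.34% and 3.24% of all genes. The sperm tail and cilia gene odf3.L (log2 fold change -1.11, adjusted p = 0.00358) and the axoneme gene spag6.L (log2 fold change -0.92, adjusted p = 0.00642) were lower, each losing its call within 1 array set (adjusted p = 0.0557 and 0.411). The lower count among tested cilia genes was 2 without primary mouth 1a, 3 without ventral 2 or ventral 3, and 2 and 3 within the arrays of high and low ratio. It was 3 when only the 6 arrays were fitted and 13 with the array set as a term. The higher gene was the cilia regulator rfx2.S (log2 fold change 0.63, adjusted p = 0.0322), whose call was lost without primary mouth 2, ventral 2 or 3, or anterior dorsal 2 or 3 (adjusted p = 0.103, 0.133, 0.0855, 0.0512 and 0.0522) and within each array set (adjusted p = 0.442 and 0.0972). None of the 5 defining multiciliated cell copies tested passed, and their sums were 281 to 387 units in primary mouth and 368 to 461 in ventral tissue.

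Genes of the heart field were lower in primary mouth than in ventral tissue by a wide margin. The GATA factor gene gata4.L read 1.57, 7.91 and 1.28 units on the primary mouth arrays and 131, 111 and 114 on the ventral arrays (log2 fold change -2.80 ± 0.17, adjusted p = 1.62e-06). Its relative gata6.L read 11.8, 4.31 and 9.87 against 409.7, 338 and 180.4 (log2 fold change -3.66 ± 0.26, adjusted p = 3.78e-06), and the bHLH factor gene hand1.L 0.872, 2.68 and 1.93 against 214, 209 and 164 (log2 fold change -3.56 ± 0.15, adjusted p = 3.15e-07). On primary mouth arrays these 3 read below 12 units, where no detection call was used here and low signals are not read as absence. The contractile protein genes myl4.L, 6.04, 4.16 and 13.9 units against 124, 193 and 145 (log2 fold change -2.83 ± 0.21, adjusted p = 5.47e-06), and tnni3.L, 1.24, 3.18 and 1.30 against 120.3, 157 and 62.2 (log2 fold change -2.78 ± 0.26, adjusted p = 2.21e-05), showed the same pattern. The heart homeobox gene nkx2-5.S did not read so low, with 120.4, 126 and 223 units in primary mouth, 448, 572 and 826 in ventral and 7.02, 11.8 and 4.88 in anterior dorsal tissue (log2 fold change -1.88 ± 0.26, adjusted p = 0.000464).

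Of 36 heart copies on the array 19 were tested, 16 of them lower, 0 higher and 3 not past the threshold. As 12 of the 19 lay above the filter on all 3 ventral arrays and on no primary mouth array, the tested count is not set against the background. Fitted without the filter, 21 of all 36 copies were lower and 0 higher against a background of 7.34% lower, with a median of -0.79. The count among tested copies was 14 to 17 when any 1 array was left out.

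Early myeloid genes shared that direction. The myeloperoxidase gene mpo.S read 115, 111 and 129.8 units in primary mouth against 457, 632 and 677 in ventral tissue (log2 fold change -2.15 ± 0.18, adjusted p = 1.05e-05), and the myeloid transcription factor gene cebpa.L read 34.6, 26.6 and 13.7 against 215, 185 and 173 (log2 fold change -2.37 ± 0.20, adjusted p = 1.09e-05). A subunit gene of the phagocyte oxidase, cyba.L, was lower too (log2 fold change -2.01, adjusted p = 0.000139). Without the filter, 12 of all 22 myeloid copies were lower and 0 higher, against 7.34% and 3.24% of all genes. Of the 15 tested, 4 lay above the filter in ventral tissue but not in primary mouth. Among these 15, 10 were lower and 1 higher. The higher one was the chemokine receptor gene cxcr4.L, which other cell types also use (log2 fold change 1.02, adjusted p = 0.0432). It lost its call without any 1 of primary mouth 3, ventral 1, 2 or 3, or anterior dorsal 2 (adjusted p = 0.0749, 0.0732, 0.0839, 0.152 and 0.064), and within the arrays of high ratio (adjusted p = 0.322). The lower myeloid count was 6 within the arrays of high ratio. Blood and endothelial genes went both ways, with fli1.S and the endothelial gene egfl7.S (log2 fold change 1.08, adjusted p = 0.00443) higher and gata2.L and gata3.S lower among 9 tested copies of 27. Among all genes tested, 4.85% were higher and 9.83% lower. Within the arrays of high ratio the call of egfl7.S was lost (adjusted p = 0.0562), and with the array set as a term 4 were higher.

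Foregut, liver and plasma protein genes divided between the tissues. The transferrin gene tf.L read 182, 267 and 203 units in primary mouth against 695, 577 and 519 in ventral tissue (log2 fold change -1.40 ± 0.19, adjusted p = 0.000335), while a2m.S, which encodes a protease inhibitor, overlapped at 3469, 3571 and 2919.6 against 4687, 2794 and 3089 (adjusted p = 0.887). The complement regulator gene cfi.L (log2 fold change -2.21, adjusted p = 0.000435) and the lectin pathway protease gene masp2.S (log2 fold change -1.83, adjusted p = 6.5e-05) were lower, and the terminal complement gene c9.L was higher, at 329, 262 and 349 units against 102, 159.8 and 132 (log2 fold change 1.17 ± 0.19, adjusted p = 0.00152). The coagulation factor gene f7.S (log2 fold change 1.17, adjusted p = 0.00709) and the plasma inhibitor precursor gene ambp.L (log2 fold change 1.96, adjusted p = 0.00159) were higher too. Kininogen, kng1.L, read 522, 934 and 989.6 against 70.8, 81.9 and 127 units (log2 fold change 2.91 ± 0.26, adjusted p = 1.66e-05). Of 14 tested complement and coagulation copies (of 24) 4 were higher and 2 lower. Among the 14, 2 lay above the filter in primary mouth but not in ventral tissue, and 2 the other way round. Without the filter 4 of all 24 were higher and 2 lower, against 3.24% and 7.34% of all genes. Of 16 tested foregut and liver copies (of 45) 9 were lower and 2 higher. Among the 16, 5 lay above the filter in ventral tissue but not in primary mouth, and 2 the other way round. Fitted without the filter, 12 of all 45 were lower and 2 higher against 7.34% and 3.24% of all genes, with a median of -0.14. The 9 lower copies included both gata5 copies (log2 fold change -2.71, adjusted p = 2.1e-06 for gata5.L and log2 fold change -2.69, adjusted p = 7.66e-06 for gata5.S). They also included gata4.L and gata6.L, given above, and the heart list holds all these GATA genes. Within the low set the call of f7.S was lost (adjusted p = 0.0555).

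**Figure D4:**
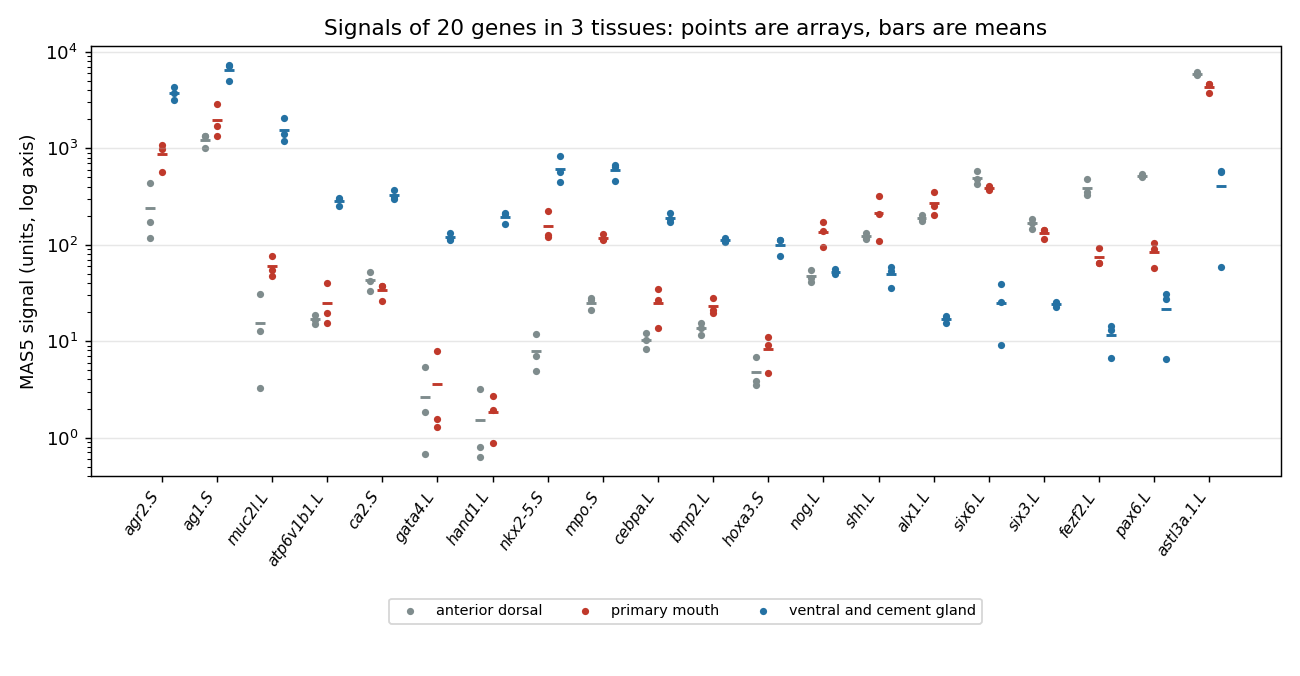
MAS5 signal (log axis, units) of 20 genes on all 9 arrays, points for arrays and bars for the mean of 3, in anterior dorsal (grey), primary mouth (red) and ventral tissue (blue). From agr2.S to hoxa3.S the ventral arrays are the highest, and six6.L, six3.L, fezf2.L and pax6.L read higher on both other tissues' arrays than on ventral arrays.

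Many BMP pathway genes and targets were lower in primary mouth. The ligand gene bmp2.L read 21.0, 28.2 and 19.5 units against 106, 118 and 109 (log2 fold change -1.71 ± 0.15, adjusted p = 1.66e-05), and the feedback pseudoreceptor gene bambi.L read 24.3, 43.5 and 29.1 against 86.4, 174 and 203 (log2 fold change -1.77 ± 0.28, adjusted p = 0.00136). Among the target genes, ventx2.1.S (log2 fold change -1.59, adjusted p = 0.000234) and msx2.L (log2 fold change -1.37, adjusted p = 0.00019) were lower as well, and gata3.S (log2 fold change -1.30, adjusted p = 0.000983) and gata2.L (log2 fold change -1.06, adjusted p = 0.00227), which act in ventral ectoderm and blood, followed. All 3 arrays of each tissue were separate for bmp2.L and bambi.L. Of 38 tested BMP and TGF-beta genes (of 64 copies) 17 were lower, 3 higher and 18 not past. Their median was -0.41 (-0.72 without ventral 1, -0.65 without primary mouth 3 and -0.26 within the arrays of high ratio). Among the 38, 4 lay above the filter in ventral tissue but not in primary mouth. Without the filter 21 of 64 were lower and 3 higher, against 7.34% and 3.24% of all genes. The higher genes were nog.L, given above, the follistatin-like gene fstl1.L (log2 fold change 1.04, adjusted p = 0.0105) and the receptor gene bmpr1a.L (log2 fold change 0.54, adjusted p = 0.026). The call of fstl1.L was lost without ventral 3 (adjusted p = 0.0527), and that of bmpr1a.L without primary mouth 1a or 2 or ventral 1 or 2 (adjusted p = 0.0591, 0.0671, 0.0639 and 0.104) or within either array set (adjusted p = 0.248 and 0.0959). The lower count was 11 within the arrays of high ratio.

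A few Hox genes and cofactors, which mark position along the body axis, were lower. The signals of hoxa3.S were 10.9, 4.66 and 9.13 units in primary mouth and 111, 111 and 76.1 in ventral tissue (log2 fold change -2.24 ± 0.18, adjusted p = 7.25e-06), and both copies of hoxa2 were lower (log2 fold change -1.24, adjusted p = 0.00135 for hoxa2.L and log2 fold change -1.17, adjusted p = 0.000462 for hoxa2.S). The cofactor gene meis3.S (log2 fold change -1.16, adjusted p = 0.00305) was the last of the lower ones and lost its call within the arrays of high ratio (adjusted p = 0.106). Only 7 of 27 copies passed the filter, 4 of them lower, 0 higher and 3 not past the threshold. Of the 7, 3 lay above the filter in ventral tissue but not in primary mouth. Without the filter 4 of all 27 were lower and 0 higher, against 7.34% and 3.24% of all genes. The median of all 27 was -0.11. The T-box gene tbx3.S, which acts in retina, heart and limb, read 33.1, 42.7 and 28.1 against 283, 324 and 301 (log2 fold change -2.66 ± 0.17, adjusted p = 1.8e-06). It belongs to the eye and lens list, in which 6 of 16 tested copies were lower and 5 higher, of 31 copies. In that list 3 lay above the filter in primary mouth but not in ventral tissue, and 2 the other way round. Without the filter 5 of all 31 were lower and 6 higher, against 7.34% and 3.24% of all genes. Among the 16 tested copies the lower count was 4 to 6 when any 1 array was left out.

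Some metabolic genes had lower signal in primary mouth. Hexokinase, hk2.L, read 12.7, 1.79 and 17.4 units in primary mouth and 102, 135 and 178 in ventral tissue (log2 fold change -2.56 ± 0.25, adjusted p = 3.84e-05), and the lactate dehydrogenase gene ldhb.S read 369, 246 and 242 against 1559.6, 1229.8 and 1692 (log2 fold change -2.34 ± 0.19, adjusted p = 8.25e-06). Both were separate on all 6 arrays. Of 49 tested glycolysis and citric acid cycle genes 9 were lower and 1 higher, of 57 copies, against 9.83% and 4.85% of all genes tested. Among the 49, 2 lay above the filter in ventral tissue but not in primary mouth, and 2 the other way round. A negative log2 fold change was found for 34 of the 49, with a median of -0.24 against 0.06 for all genes. Of 64 tested oxidative phosphorylation genes 0 passed in limma (1 was higher and 1 lower at an unadjusted p under 0.05). Without primary mouth 3, 2 of the latter were higher, and without ventral 3, 1 was lower. Of stress genes, thioredoxin, txn.L, read 86.5, 99.2 and 114 against 465, 436 and 559 units (log2 fold change -2.11 ± 0.17, adjusted p = 7.28e-06), and haem oxygenase, hmox1.S, was lower (log2 fold change -1.73, adjusted p = 9.96e-05). The chaperone gene dnajb9.L of the endoplasmic reticulum was lower too (log2 fold change -1.17, adjusted p = 0.00245). Of 33 tested heat shock and stress genes 5 were lower and 1 higher, of 44 copies, against 9.83% and 4.85% of all genes tested. The higher one, gpx3.S, lost its call when any 1 array other than primary mouth 2 was left out (adjusted p = 0.143 without primary mouth 1a and 0.106 without ventral 3) and within each array set (adjusted p = 0.212 and 0.0549). The lower stress gene count was 3 within the arrays of high ratio. The count of lower glycolysis and citric acid cycle genes was 4 within the arrays of high ratio.

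The remaining lists held few calls, to be read against 4.85% higher and 9.83% lower among all genes tested. Of 12 tested skeletal muscle and notochord genes 2 were higher, shh.L and the fast troponin gene tnni2.S (log2 fold change 0.96, adjusted p = 0.00229), and 3 lower, of 40 copies. Of the lower ones, tnnc1.L (log2 fold change -1.74, adjusted p = 0.00355) encodes the troponin C of heart and slow muscle. Among 29 tested tight junction and adhesion genes (of 35 copies) cdh11.S was higher, and the junction genes cldn5.S (log2 fold change -0.98, adjusted p = 0.00396) and cgn.L (log2 fold change -0.62, adjusted p = 0.0362) were lower. The call of cgn.L was lost without primary mouth 1a or 3 or ventral 2 or 3 (adjusted p = 0.0832, 0.0755, 0.157 and 0.0883), and without primary mouth 3 the lower count was 4. Both calls were lost within the arrays of high ratio (adjusted p = 0.208 for cldn5.S and 0.658 for cgn.L), which left 0 lower genes. Of 17 tested FGF genes (of 26) 1 was higher, the ligand gene fgf20.L (log2 fold change 1.33, adjusted p = 0.000326), and 3 were without primary mouth 2 and 4 with the array set as a term. Without primary mouth 3, 2 were lower. Of 6 tested secretory cell genes (of 7) 3 were lower, the pioneer factor gene foxa1.S (log2 fold change -1.21, adjusted p = 0.00241), xbp1.L (log2 fold change -0.86, adjusted p = 0.0114) and the galectin gene lgals3.L (log2 fold change -0.73, adjusted p = 0.0073). The call of xbp1.L was lost without ventral 3 (adjusted p = 0.0588), those of foxa1.S and xbp1.L within the arrays of high ratio (adjusted p = 0.102 and 0.192) and that of lgals3.L within those of low ratio (adjusted p = 0.13). Of 19 tested apoptosis genes (of 27) 2 were higher and 1 lower, and without primary mouth 1a, ventral 2 or ventral 3 the counts were 0 and 0. The higher count was also 0 within the arrays of low ratio.

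The anterior dorsal level was not evenly spread around the other tissues' levels. Of the 442 probe sets higher in primary mouth, the anterior dorsal mean was above both means for 199, between them for 165 and below both for 78. Among the 1010 lower ones it was below both for 480, between for 504 and above both for 26. Genes of the first kind included fezf2.L, pax6.L, pax3.S and astl3a.1.L, and of the last kind crx.S, at 97.6, 142 and 106 units in anterior dorsal tissue.

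Xenopus laevis keeps .L and .S copies, called homeologs, of many genes, and a probe set may detect both copies. Of 691 pairs with both copies tested, 16 were higher for both and 45 lower for both, 99 had 1 copy called and 0 were called in opposite directions. In 75 of those 99 pairs the other copy had the same sign. Of 736 symbols with several tested probe sets, 46 had all of them called in 1 direction, 87 had some called and others not, and 1 (polr2i.S) had probe sets called in opposite directions.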

How the data were processed

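RNA from dissected tissue of stage 26 Xenopus laevis embryos was hybridised to 1 Affymetrix array per sample, 3 per tissue. The authors deposited linear signal intensities, 1 for every probe set on every array, made with MAS5 per the submitters' processing notes (version and settings not given in the sources used here). Since the trimmed mean signal was 150 on all 9 arrays, no further scaling was done; median signals were 51.1 to 59.6 units. Detection calls were not used here. Arrays give no counts, so their number limits the precision.

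Of 15611 probe sets, 120 controls were left out. In the platform annotation 9304 probe sets have 1 symbol, 195 have several and 5992 have none. Gene IDs linked 9227 to RefSeq's gene table (assembly Xenopus_laevis_v10.1), used for names only, which updated 2 symbols. The deposited intensities were analysed as log2(signal + 16), a scale that understates changes of low genes. Probe sets above the 40th percentile of their array on at least 3 of 9 arrays were tested. A linear model with tissue means was fitted over the 9 arrays (limma 3.58.1, R 4.3.3, lmFit and eBayes with a variance trend, 6 residual degrees of freedom). The two-sided contrast primary mouth minus ventral was adjusted by Benjamini-Hochberg at a threshold of 0.05. On simulated data the fit called 67% of probe sets changed by 1 and 98% of those changed by 2 on the log2 scale, with 8 false calls. The simulated noise was independent between probe sets and held no array set effect. In the real data 1 shared component held 55.1% of the residual variance, so these figures need not hold for these arrays.

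The tested probe set of highest mean stood for a gene. The members, the 35 gene lists and the rule for named genes were chosen with earlier results of these data known. Named were the 15 genes with the largest change in each direction among those called without overlap (clone and placeholder names left out), up to 4 called genes per list and direction, both copies of ag1, agr2, pitx1, otx2, crx and frzb, and the cell type markers. The rule set 161 genes. A pair of further lists was added after values were seen. No set test was run. Lists are described by counts and medians. The alternatives were the pseudocount, the filter, quantile normalization, the 6 arrays alone, no variance trend, the array set as a term, each array set alone, the replicate number as a block and leaving out each array.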

Additional observations from a re-analysis of the deposited data

How the results depend on the processing

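Of the 158 named genes that were called, 96 kept their call under all 19 alternatives, 30 lost it only within 1 or both of the array sets, and 32 lost it when some array was left out. Within the arrays of high and low ratio 43 and 30 of these calls were lost, when only the 6 arrays were fitted 14, and without the filter 9. No named gene that was called reversed the sign of its log2 fold change. The medians of 4 of the 35 lists (skeletal muscle and notochord, Wnt, Notch, and heat shock) changed sign under some alternative, that of skeletal muscle from 0.21 to -0.39 within the arrays of low ratio. The count of higher probe sets (442) ranged from 237 to 671 and that of lower ones (1010) from 718 to 1056 when 1 array was left out, with the lone pair of arrays then assumed to vary like the other tissues. The higher count was 877 with the array set as a term and 231 within the arrays of high 3' to 5' ratio, and the lower count was 529 within the latter. A fit of those few arrays, with a single ventral array, has less power by construction. The causes of the other shifts were not tested. The pseudocounts of 4 and 64, no filter, quantile normalization, the 6 arrays alone and no variance trend gave 314 to 509 higher and 829 to 1046 lower probe sets. Same-numbered arrays of primary mouth and ventral tissue deviated from their tissue means with correlations of 0.35, -0.12 and 0.57, so the numbers were not taken to pair the samples. With the replicate number as a block 928 probe sets were higher and 1424 lower, and 0 named calls were lost. Low signals, near the pseudocount of 16, limit the changes that could be measured.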

Other observations

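A further group came to notice after the values were seen, so it was given no test of its own and its counts are descriptions. Enzymes and transporters that make activated sugars for glycans were lower in primary mouth than in ventral tissue. Of 21 tested copies (23 on the array) 11 were lower, 0 higher, and all 21 had a negative log2 fold change, with a median of -0.73 against 0.06 for all genes. The first enzyme of the hexosamine pathway is encoded by gfpt1.S, which read 391, 427 and 466 units in primary mouth, 2166, 1329 and 1811 in ventral and 474, 418 and 472 in anterior dorsal tissue (log2 fold change -1.98 ± 0.18, adjusted p = 2.21e-05). Its isoenzyme gene gfpt2.L read 526, 302 and 786, 1209, 1731 and 2896 and 651, 809 and 838 units (log2 fold change -1.83 ± 0.34, adjusted p = 0.00318). The sialic acid synthase gene nans.S (log2 fold change -1.80, adjusted p = 0.000493) and the GDP-mannose dehydratase gene gmds.L (log2 fold change -1.37, adjusted p = 0.000235), which starts GDP-fucose synthesis, were lower too. The count was 8 to 14 when any 1 array was left out.

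Rab GTPases, which direct vesicle traffic, were chosen in the same way. Of 17 tested copies (19 on the array) 7 were lower and 0 higher, with a median of -0.59. Among all genes tested, 9.83% were lower and 4.85% higher. The largest decrease was that of rab3a.L, at 35.3, 17.1 and 32.0 units in primary mouth against 245, 209.8 and 324 in ventral tissue (log2 fold change -2.65 ± 0.24, adjusted p = 1.68e-05). Among the other lower ones rab27a.S read 205, 164 and 184 against 494, 473 and 695 (log2 fold change -1.49 ± 0.19, adjusted p = 0.000224) and rab3d.L 295, 287 and 479.8 against 808, 844 and 1151 (log2 fold change -1.38 ± 0.21, adjusted p = 0.000918). The remaining 10 tested copies did not pass the threshold.

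Both copies of the intermediate filament gene vim, common in mesenchyme and neural progenitors, were higher, vim.L at 1842, 2001 and 1785 units in primary mouth against 814, 697 and 617 (log2 fold change 1.39 ± 0.17, adjusted p = 0.000203) and vim.S at 379, 312 and 407 against 159, 140.3 and 104 (log2 fold change 1.35 ± 0.18, adjusted p = 0.000376). Both were picked out after their values were seen. The probe set with the largest decrease of all, a log2 fold change of -5.28, has no gene symbol in the annotation used here.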
